A study of Caenorhabditis elegans with 154 samples.

Results

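The proteasome subunit genes of *C. elegans* were examined in single starved L1 larvae. The members were the 33 genes whose WormBase symbol is *pas-1* to *pas-7*, *pbs-1* to *pbs-7*, *rpt-1* to *rpt-6*, or *rpn* with a number, of 46744 genes in the tables. They comprise 14 genes of the core and 19 of the cap, of which 10 belong to the base and 9 to the lid. Transcript rows of a gene were to be summed, and each of the 33 had a single row. Levels are given as tpm, the share of an animal's transcripts that a gene takes after division by length, scaled to the same total in every animal. All 33 were tested.

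The groups were *fog-2* L1s at 1, 5, 20 and 100 eggs/μL (14, 22, 20 and 24 animals) and N2 L1s at the same densities (13, 22, 16 and 23 animals). All animals hatched and arrested overnight, without food, in M9 buffer, from embryos bleached out of never-starved parents. N2 is the wild-type hermaphrodite strain. In the *fog-2* mutant XX animals make no sperm, so these L1s came from matings with males, and the sex of a single *fog-2* L1 is not given. Each animal was made into its own library by Smart-Seq2, in which cDNA copies of whole transcripts are amplified from the RNA of few cells. Whether the animals of a group came from separate cultures is not given, so the p-values below measure only the spread between these animals.

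The proteasome is the protease that degrades proteins tagged with ubiquitin. Its barrel-shaped core is built from rings of alpha subunits (*pas* genes) and beta subunits (*pbs* genes), the beta rings carrying the cutting sites inside. The cap sits on the end of the barrel: its base holds the *rpt* ATPases that unfold a substrate and the receptors that bind ubiquitin, and its lid holds the enzyme that removes the ubiquitin chain. In worms the subunit genes are known to be induced together by SKN-1A, a form of the transcription factor SKN-1, when proteasome activity falls.

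Most of the subunit genes were detected in most animals. Between 28 and 33 of the 33 genes were above 0 in *fog-2* L1s at 100 eggs/μL (median 32), against 17 to 33 at 1 egg/μL (median 32). In N2 L1s 19 to 33 were above 0 at 100 eggs/μL (median 30), against 24 to 33 at 1 egg/μL (median 30). The number of genes of any kind at 1 tpm or more ranged from 7243 to 17873 per animal. Its median was 13263.5 in *fog-2* at 100 eggs/μL and 11568.5 at 1 egg/μL, and 10299 in N2 at 100 eggs/μL and 9830 at 1 egg/μL. The part of this difference in the results was tested only as a covariate, described with the merged comparison. In 2 N2 animals at 100 eggs/μL the median Spearman correlation with the rest of their group was 0.474 and 0.494, while the lowest animal of each of the other 7 groups had 0.565 to 0.63.

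Markers of L1 tissues were present: 12 or 13 of 15 had a median above 0 in each group, led by the muscle genes *unc-15* and *tnc-2*, while the hypodermal collagen genes *dpy-7*, *rol-6* and *bli-1* had a median of 0 over all animals. Of 16 tested genes that mark oocytes and early embryos, 7 rose between 100 and 1 egg/μL over both strains, against 10.3% of all genes tested (limma, adjusted p under 0.05). In *fog-2* alone 6 of the 16 rose, against 6.76% of all genes called in either direction. In N2 alone 0 passed, against 0.249% of all genes in either direction. The count over both strains was 0 with the number of genes at 1 tpm as a covariate and 2 with quantile normalization. Of all 16457 genes tested, 1700 rose as fitted, 156 with the covariate and 400 with quantile normalization. The first digit after the density in an animal's name (the name digit) is not explained in the sources used here. With means by name digit the count of these markers was 3, and without animals of name digit 3 it was 0. Of all genes tested, 502 and 134 rose in these settings. At 1 egg/μL, 8 of 13 N2 and 6 of 14 *fog-2* animals have digit 3, so this setting also leaves fewer animals. In *fog-2* the summed level of all 18 listed was 17.8 to 459 tpm at 100 eggs/μL (median 71.4), against 0 to 49.5 tpm at 1 egg/μL (median 18.8). In N2 it was 1.98 to 135 tpm at 100 eggs/μL (median 21.1), against 1.60 to 44.6 tpm at 1 egg/μL (median 6.62). Of the 18 genes, 4 had a median of 0 in *fog-2* at 100 eggs/μL and 13 at 1 egg/μL, against 15 and 17 in N2. Their part in the proteasome values was not tested. In whole animals a lower level can come from fewer cells of a type or from less RNA per cell, and these cannot be told apart.

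The subunit genes differed in level among themselves by an order of magnitude. Averaged over the means of the 8 groups, *rpn-6.1* was highest at 92.5 tpm and *rpn-6.2* lowest at 7.06 tpm, a ratio of 13.1. The second was *rpn-10* at 53.8 tpm, followed by *pbs-3* at 45.0, *pbs-5* at 41.3 and *pas-3* at 40.0 tpm. The median over the 33 genes was 17.96 tpm, 26 genes lay between 10 and 50 tpm, and 5 lay under 10 tpm, these being *rpn-9*, *pas-7*, *pbs-2*, *rpn-12* and *rpn-6.2*. Core and cap genes had like medians, 18.11 and 17.96 tpm. Within the core the alpha genes spanned 9.88 to 40.0 tpm (median 15.4) and the beta genes 9.08 to 45.0 tpm (median 19.7). Within the cap the base genes spanned 10.9 to 53.8 tpm (median 18.3) and the lid genes 7.06 to 92.5 tpm (median 16.6). Neighbors in this order overlapped in the spread of their groups: the group means of *rpn-6.1* ran from 59.6 to 121 tpm and those of *rpn-10* from 31.7 to 81.1 tpm.

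The order of the 33 genes was alike in both tables, with a Spearman rho of 0.844 between their mean levels in *fog-2* and in N2. This rho is across genes, whose length and base composition are the same in both tables, and within a table all genes share its libraries. The strains were deposited in separate tables, and no level was tested between them. The lower a gene's mean, the more often it was listed at 0 (Spearman rho −0.776 across the 33 genes). Only *pbs-5* was above 0 in every animal, *rpn-6.1* was at 0 in 1 animal, and *rpn-6.2* was at 0 in 47 (30.5%) and *rpn-12* in 44 (28.6%). At this depth a gene listed at 0 was not detected, which does not show that it was absent.

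The 33 genes lie on chromosomes I (10), II (7), III (8), IV (3) and V (5), and none on X, which holds 14.4% of the tested genes with a position. In the Ensembl annotation of WBcel235, the same assembly as the ce11 build named by the submitters, exons of 10 members overlap exons of another protein-coding gene. For 9 of these the neighbor is on the opposite strand: *pas-7* with *lact-2*, *pbs-3* with *ndx-3*, *pbs-4* with *mrrf-1*, *rpt-2* with *fos-1*, *rpt-4* with *rpoa-49*, *rpt-6* with *glrx-5*, *rpn-7* with *nemt-1*, *rpn-10* with B0205.12 and *rpn-11* with *pqn-48*. The exons of *pbs-7* overlap those of K07A12.5 on the same strand. Smart-Seq2 does not mark the strand, so reads from these overlaps could not be assigned by strand. Of the genes described by density, *pbs-1* lies on chromosome IV from 1708814 to 1709745 and *rpn-1* on IV from 6906420 to 6909913. On chromosome III lie *rpn-6.1* from 6959110 to 6962001, *rpn-6.2* from 8999817 to 9001999 and *rpn-13* from 6340113 to 6341928. *rpn-11* lies on II from 4043055 to 4044546, all 6 are on the minus strand, and *pbs-2*, *pbs-5* and *rpn-10* lie on I.

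The sums over the core and over the cap overlapped between animals of all 4 densities. In *fog-2* the core genes summed to a median of 316 tpm at 1 egg/μL (range 127 to 438), 264 at 5 (167 to 506), 278 at 20 (200 to 460) and 298 tpm at 100 eggs/μL (229 to 483). The core genes of N2 summed to a median of 328 tpm at 1 egg/μL (range 215 to 689), 363 at 5 (212 to 797), 310 at 20 (196 to 469) and 246 tpm at 100 eggs/μL (104 to 657). The lowest core medians were thus at 5 eggs/μL in *fog-2* and at 100 eggs/μL in N2, and animals of all densities overlapped. The cap genes of *fog-2* summed to a median of 390 tpm at 1 egg/μL (range 191 to 531), 435 at 5 (276 to 771), 376 at 20 (151 to 661) and 386 tpm at 100 eggs/μL (244 to 698). Those of N2 summed to 437 tpm at 1 egg/μL (range 175 to 746), 499 at 5 (159 to 665), 481 at 20 (300 to 680) and 431 tpm at 100 eggs/μL (195 to 953). The highest cap medians were at 5 eggs/μL in both strains, with overlap between all groups.

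**Figure D1:**
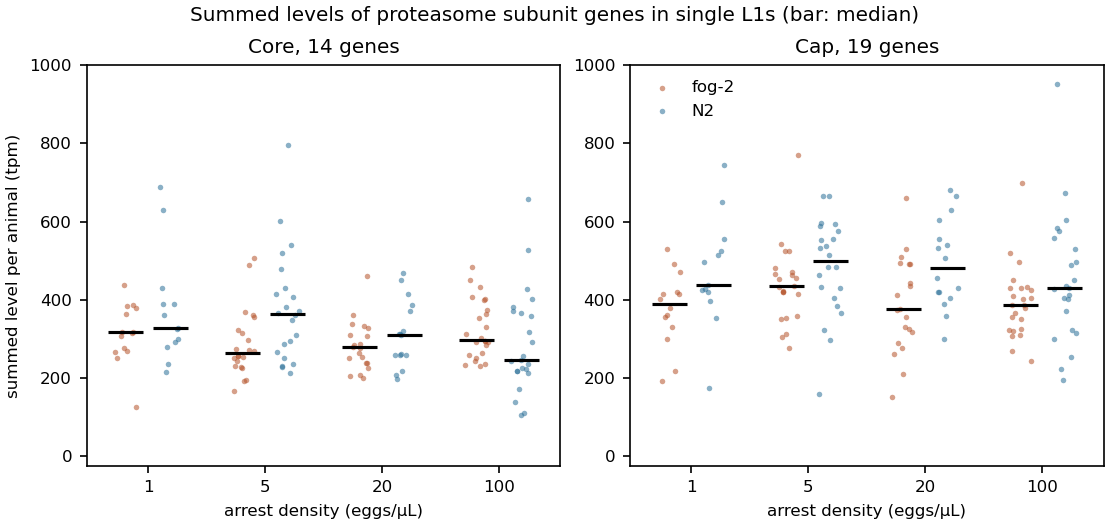
Summed level per animal in tpm (vertical axis) of the 14 core genes (left) and the 19 cap genes (right) at each arrest density in eggs/μL, with *fog-2* left and N2 right at each density. Each point is 1 animal and bars are medians. The core medians lie between 246 and 363 tpm and the cap medians between 376 and 499 tpm, and the animals of all densities overlap.

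The balance of core and cap varied widely between single animals. The ratio of the core sum to the cap sum had a median of 0.766 in *fog-2* at 100 eggs/μL (0.577 to 1.48), against 0.869 at 1 egg/μL (0.545 to 1.31). In N2 it had a median of 0.624 at 100 eggs/μL (0.117 to 1.49), against 0.688 at 1 egg/μL (0.522 to 1.62). The lowest of these ratios was a single N2 animal at 100 eggs/μL, and the ranges overlapped in both strains.

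Animals with a high core sum did not stand out by a high cap sum. After the group means were taken out, the correlation between the log2 core and cap sums over all animals was 0.06 (Pearson) and 0.01 (Spearman). The core sum correlated with the number of genes at 1 tpm at −0.04 and the cap sum at 0.34 (Pearson). The points share library, depth and the fixed total of tpm, and the values are a description. Over the 528 pairs of subunit genes the median correlation was 0.09 (−0.25 to 0.42). Over the 1830 pairs of 61 ribosomal protein genes, whose levels were also measured in these animals, it was 0.79 (0.19 to 0.96). Other complexes had low medians too, 0.15 over 8 genes of the CCT chaperonin and 0.03 over 6 of the COP9 signalosome. The part of detection in these differences was not tested.

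The within-group SD of a subunit gene was 0.86 to 1.82 on the log2(tpm + 1) scale, with a median of 1.45. The steadiest was *pbs-5* at 0.86, which was below the SD of all but 7.4% of genes within 0.25 of its mean level on that scale. For *rpn-1* the SD was 1.14 and all but 7.0% of like genes had a larger one. The most variable were *pas-4* at 1.82 and *rpn-12* at 1.77. Of the 33 genes, 19 varied less than the middle gene of like level.

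The catalytic subunits of the core are *pbs-1*, *pbs-2* and *pbs-5*, whose products cut after acidic, basic and hydrophobic residues in that order. In *fog-2* the median level of *pbs-5* was 43.6 tpm at 1 egg/μL (range 16.3 to 75.5), 36.6 at 5 (6.51 to 78.8), 38.7 at 20 (10.3 to 71.9) and 46.3 tpm at 100 eggs/μL (1.78 to 93.6). The N2 median was 51.6 tpm at 1 egg/μL (range 9.85 to 114), 24.6 at 5 (4.96 to 66.9), 39.8 at 20 (7.47 to 94.7) and 37.5 tpm at 100 eggs/μL (9.46 to 89.2). Levels of *pbs-5* at 100 and 1 egg/μL overlapped in both strains, and the N2 median was lowest at 5 eggs/μL.

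The other catalytic genes were lower and often at 0. For *pbs-1* the *fog-2* median was 16.9 tpm at 1 egg/μL (range 0 to 65.2), 14.2 at 5 (0 to 43.9), 15.2 at 20 (3.30 to 64.8) and 16.5 tpm at 100 eggs/μL (5.85 to 63.9). The N2 median of *pbs-1* was 15.0 tpm at 1 egg/μL (range 0 to 28.0), 7.53 at 5 (0 to 62.7), 5.18 at 20 (0 to 27.0) and 8.74 tpm at 100 eggs/μL (0 to 42.3). The groups overlapped, and 3 N2 animals at 100 eggs/μL lay above all N2 animals at 1 egg/μL. For *pbs-2* the *fog-2* median was 7.91 tpm at 1 egg/μL (range 0 to 20.8), 6.76 at 5 (0 to 29.8), 5.77 at 20 (0 to 39.7) and 7.84 tpm at 100 eggs/μL (2.07 to 25.4). The N2 median of *pbs-2* was 3.47 tpm at 1 egg/μL (range 0 to 27.0), 6.30 at 5 (0 to 33.6), 5.03 at 20 (0 to 22.3) and 7.73 tpm at 100 eggs/μL (0 to 27.4). Again every density overlapped with the next.

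Log2 fold changes of 100 over 1 egg/μL came from limma on log2(tpm + 1) in the 74 animals of both strains with strain as a covariate, a scale that understates the change of low genes. They were −0.27 (SE 0.23, 95% interval −0.74 to 0.19) for *pbs-5*, 0.06 (SE 0.35, −0.63 to 0.74) for *pbs-1* and 0.24 (SE 0.34, −0.44 to 0.92) for *pbs-2*. None of the catalytic genes passed the threshold of an adjusted p under 0.05 (limma, Benjamini-Hochberg over all genes, adjusted p = 0.494, 0.943 and 0.720). The other beta genes, *pbs-3*, *pbs-4*, *pbs-6* and *pbs-7*, and the alpha genes that gate the entrance of the core gave −0.67 to 0.12.

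The genes for ubiquitin receptors of the base, *rpn-10* and *rpn-13*, were among the better detected. In *fog-2* the median level of *rpn-10* was 36.1 tpm at 1 egg/μL (range 11.1 to 73.6), 37.7 at 5 (9.32 to 74.4), 32.5 at 20 (0 to 78.3) and 40.0 tpm at 100 eggs/μL (6.55 to 88.8). N2 animals had a median of 63.9 tpm at 1 egg/μL (range 1.67 to 123.0), 59.2 at 5 (17.8 to 124.8), 72.0 at 20 (0 to 147) and 61.2 tpm at 100 eggs/μL (20.6 to 280). In N2 4 animals at 100 eggs/μL lay above all animals at 1 egg/μL, and the rest overlapped. For *rpn-13* the *fog-2* median was 23.4 tpm at 1 egg/μL (range 10.0 to 43.3), 21.8 at 5 (0 to 77.7), 21.02 at 20 (0 to 71.0) and 26.0 tpm at 100 eggs/μL (2.95 to 75.5). Its N2 median was 13.2 tpm at 1 egg/μL (range 3.99 to 45.0), 12.5 at 5 (0 to 27.7), 11.6 at 20 (0 to 50.1) and 9.49 tpm at 100 eggs/μL (0 to 35.4). In *fog-2* 5 animals at 100 eggs/μL lay above and 2 below all animals at 1 egg/μL, while in N2 6 lay below them all. The log2 fold changes were 0.38 for *rpn-10* (SE 0.25, −0.12 to 0.88, limma adjusted p = 0.352) and −0.20 for *rpn-13* (SE 0.27, −0.73 to 0.33, adjusted p = 0.694).

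The deubiquitinase of the lid is encoded by *rpn-11*, and its partner in the lid by *rpn-8*. In *fog-2* the median level of *rpn-11* was 29.0 tpm at 1 egg/μL (range 6.05 to 54.6), 17.3 at 5 (0.64 to 44.0), 17.3 at 20 (1.22 to 30.6) and 18.02 tpm at 100 eggs/μL (0.48 to 45.6). In N2 it was 32.2 tpm at 1 egg/μL (range 0.99 to 64.7), 22.4 at 5 (0 to 93.9), 20.4 at 20 (3.22 to 105) and 16.1 tpm at 100 eggs/μL (0 to 77.3). The highest median was at 1 egg/μL in both strains, with overlap at every density. The log2 fold change of 100 over 1 egg/μL was −0.51 (SE 0.32, −1.15 to 0.13, limma adjusted p = 0.322) and did not pass. The largest positive change among the 33 genes was that of *rpn-8*, 0.71 (SE 0.40, −0.08 to 1.499, limma adjusted p = 0.256).

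The paralogs *rpn-6.1* and *rpn-6.2* encode versions of a lid subunit that braces the core against the cap, and reads shared between them may have been split by the estimate. In *fog-2* the median level of *rpn-6.1* was 91.4 tpm at 1 egg/μL (range 21.04 to 203), 123.2 at 5 (29.0 to 250), 94.1 at 20 (3.65 to 274) and 88.4 tpm at 100 eggs/μL (22.3 to 162). The N2 median was 55.3 tpm at 1 egg/μL (range 9.95 to 117), 76.5 at 5 (0 to 223), 79.1 at 20 (10.95 to 208) and 89.4 tpm at 100 eggs/μL (3.39 to 242). In N2 8 of 23 animals at 100 eggs/μL lay above and 1 below all animals at 1 egg/μL, and in *fog-2* all lay within their range.

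The lower paralog *rpn-6.2* had a *fog-2* median of 1.72 tpm at 1 egg/μL (range 0 to 10.9), 4.34 at 5 (0 to 38.2), 2.93 at 20 (0 to 30.8) and 2.90 tpm at 100 eggs/μL (0 to 22.2). Its N2 median was 0 tpm at 1 egg/μL (range 0 to 31.3), 3.73 at 5 (0 to 57.8), 11.7 at 20 (0 to 59.2) and 2.0 tpm at 100 eggs/μL (0 to 20.1). It was listed at 0 in 2 of 24 *fog-2* animals at 100 eggs/μL and in 6 of 14 at 1 egg/μL, and in 10 of 23 N2 animals at 100 eggs/μL and in 7 of 13 at 1 egg/μL. The log2 fold changes were 0.09 for *rpn-6.1* (SE 0.26, −0.42 to 0.60, limma adjusted p = 0.877) and 0.39 for *rpn-6.2* (SE 0.37, −0.34 to 1.12, adjusted p = 0.548).

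**Figure D2:**
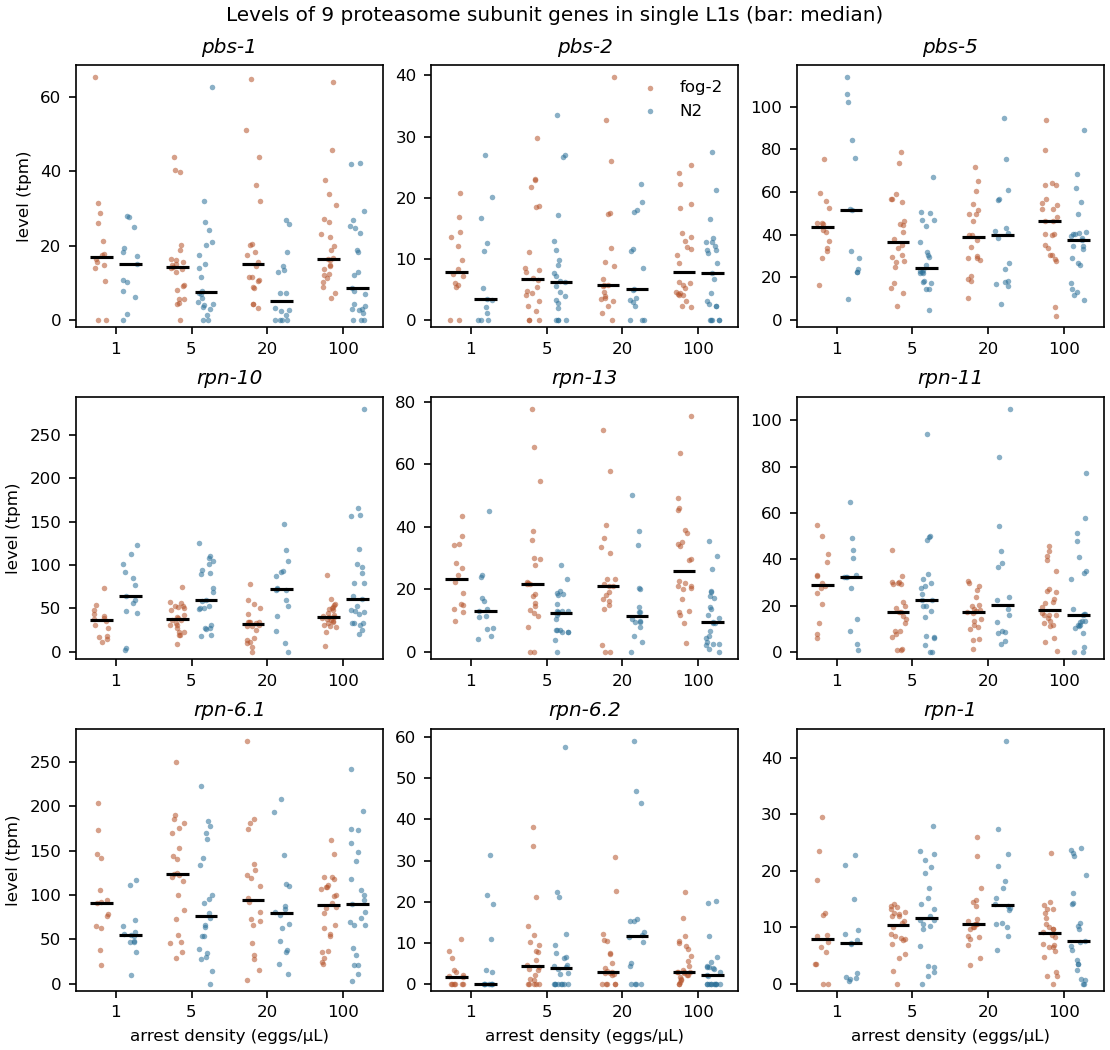
Level in tpm (vertical axes, each with its own scale) of 9 subunit genes in single animals at each arrest density in eggs/μL, with *fog-2* left and N2 right at each density. Each point is 1 animal and bars are medians. For all 9 genes the animals at 100 and 1 egg/μL overlap in both strains. Averaged over the group means, *rpn-6.1* is highest at 92.5 tpm and *rpn-6.2* lowest at 7.06 tpm. Single groups can differ in order: in N2 at 1 egg/μL the median is 63.9 tpm for *rpn-10* and 55.3 tpm for *rpn-6.1*.

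Over both strains no subunit gene passed the test between 100 and 1 egg/μL. The count was 0 of 33, while 12.4% of the 16457 genes tested did (limma, adjusted p under 0.05). At an unadjusted p under 0.05 there was 1 (3.03%), against 4248 of all genes (25.8%). It was *pbs-3*, a structural beta subunit, with a log2 fold change of −0.67 (SE 0.31, −1.29 to −0.04, limma p = 0.0363, adjusted p = 0.158). The median level of *pbs-3* was 40.8 tpm in *fog-2* at 100 eggs/μL (13.6 to 156), against 43.7 tpm at 1 egg/μL (28.0 to 89.0). N2 animals had a median of 32.5 tpm at 100 eggs/μL (0 to 114), against 52.3 tpm at 1 egg/μL (8.63 to 114). The groups overlapped in both strains. The count at an unadjusted p under 0.05 was 0 without the 2 N2 animals that stood apart and with the name digit as a replicate block, 2 with means by name digit, 3 with quantile normalization or a pseudocount of 10, and 5 with the number of genes at 1 tpm as a covariate, where the lowest adjusted p was 0.0618.

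The median log2 fold change of the 33 genes was −0.17, with −0.20 over the core and −0.10 over the cap, and 20 of 33 were negative, against 30.2% of all genes tested. Without the 2 N2 animals that stood apart it was −0.10 over the 33, −0.16 over the core and −0.03 over the cap. With quantile normalization 30 of 33 were negative, and with the number of genes at 1 tpm as a covariate 27. Over all genes tested the median was 0.24 and 1700 genes rose while 338 fell, 10.3% and 2.05% of those tested. The all-gene median moved to 0.03 with quantile normalization and to −0.02 with the covariate. The calls then split into 400 higher and 391 lower, and 156 higher and 280 lower. Relative to the all-gene median, the median of the subunit genes was −0.41 as fitted, −0.36 with quantile normalization and −0.31 with the covariate. In these alternatives too, 0 of the 33 passed. The 95% intervals of 22 genes lay within a log2 change of 1 either way, while 9 reached −1 and 2 reached 1.

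By role, the median was −0.27 over the alpha genes (*pas-1* to *pas-7*), −0.09 over the beta genes, −0.18 over the base genes and −0.07 over the lid genes. Among the base genes the *rpt-1* to *rpt-6* ATPases gave −0.34 to 0.13 and the scaffold genes *rpn-1* and *rpn-2* gave 0.21 and −0.56. Among the lid genes, the structural subunits *rpn-3*, *rpn-5*, *rpn-7*, *rpn-9* and *rpn-12* gave −0.32 to 0.01. None of the 4 roles had a member past the threshold.

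**Figure D3:**
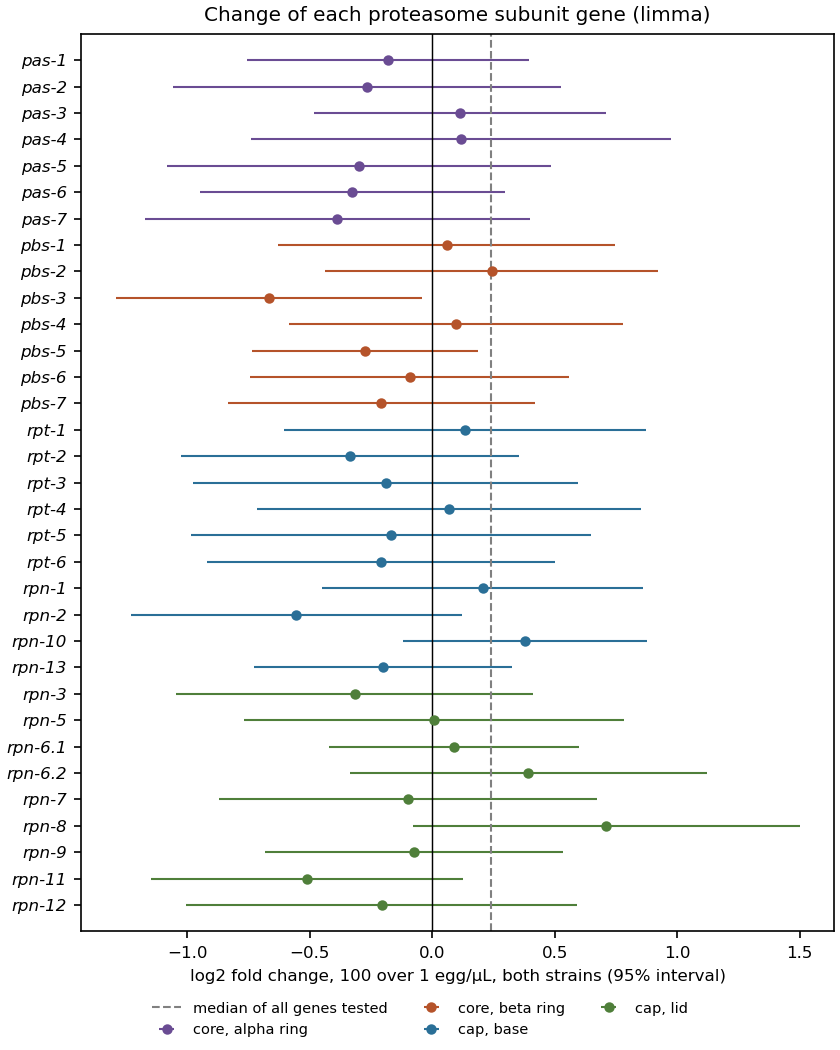
Log2 fold change of 100 over 1 egg/μL in both strains (horizontal axis, limma on log2(tpm + 1), 74 animals) for each of the 33 subunit genes, colored by role, with 95% intervals. The dashed line is the median of all genes tested, 0.24. The interval of *pbs-3* is the only one that leaves out 0, before adjustment over all genes.

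Within each strain no subunit gene passed. In *fog-2* 0 of 33 genes passed, against 6.76% of all genes tested. An unadjusted p under 0.05 was reached by 1 of 33 (3.03%), against 22.1% of all genes. It was *rpn-6.2* at 0.89 (SE 0.44, limma adjusted p = 0.222). The median of the 33 was 0.19, against 0.27 over all genes, and 8 were negative, against 30.7% of all genes. The *fog-2* side turned under other scalings, to a median of −0.02 with 18 negative under quantile normalization and −0.11 with 21 negative with the number of genes at 1 tpm as a covariate. In N2 0 of 33 passed, against 0.249% of all genes tested. An unadjusted p under 0.05 was reached by 2 of 33 (6.06%), against 10.8% of all genes. They were *rpn-2* at −1.49 (SE 0.52, limma adjusted p = 0.302) and *rpn-3* at −1.17 (SE 0.56, limma adjusted p = 0.449). The median of the 33 was −0.45, against 0.20 over all genes, and 25 were negative, against 36.0% of all genes. In N2 28 were negative under either of those settings. Without such a setting, in 19 genes the change was positive in *fog-2* and negative in N2, in 2 the reverse, and in 12 the signs matched. Single *fog-2* animals at 1 egg/μL had only 17, 21 and 25 of the 33 genes above 0. These animals had 7637, 8517 and 7839 genes at 1 tpm. On the log scale such values at 0 lower the mean at 1 egg/μL, and their part in the *fog-2* signs was not tested.

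The base scaffold gene *rpn-2* had the largest difference between strains and is named because of its values. Its median level in *fog-2* was 15.6 tpm at 100 eggs/μL (5.84 to 32.5), against 18.6 tpm at 1 egg/μL (0 to 37.0). In N2 it was 18.2 tpm at 100 eggs/μL (0 to 64.4), against 42.6 tpm at 1 egg/μL (11.8 to 118.7). In N2 9 of 23 animals at 100 eggs/μL lay below all animals at 1 egg/μL, and the others overlapped with them. In *fog-2* the fitted change of *rpn-2* was 0.32 (SE 0.40), although its median was lower at 100 eggs/μL. There it was listed at 0 in 2 of 14 animals at 1 egg/μL and in 0 of 24 at 100 eggs/μL. The part of these values at 0 was not tested. The difference between the changes, *fog-2* minus N2, was 1.82 (SE 0.65, 0.51 to 3.12, limma interaction p = 0.00682, adjusted p = 0.610).

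In the interaction test 0 of 33 genes passed, and 0% of all genes did. An unadjusted p under 0.05 was reached by 4 subunit genes (12.1%), *rpn-2*, *rpn-3*, *rpn-9* and *rpn-12*, all of the cap, and by 1113 of all genes (6.76%). The change was more positive in *fog-2* than in N2 in 26 of 33 genes and more negative in 7 (21.2%), while it was more negative in 41.7% of all genes. The median difference was 0.75 over the 33 genes, 0.51 over the core and 0.76 over the cap, against 0.14 over all genes. Without the 2 N2 animals that stood apart the median over the 33 genes was 0.51, against 0.10 over all genes, and 0 passed. With the number of genes at 1 tpm as a covariate it was 0.48, against −0.03 over all genes, and with a pseudocount of 10 it was 0.34, against 0.03. The intervals of single genes were wide, from −1.97 to 3.26 at their ends, and 31 of 33 reached 1, so a difference of 1 on the log2 scale between strains lay within them for most genes. Over 16 tested oocyte and embryo markers the median difference was 0.54, and its part was not tested. The 61 tested ribosomal protein genes had a median difference of 0.35, with 59 more positive in *fog-2* and 2 more negative. The genes of the CCT chaperonin and the COP9 signalosome had median differences of 0.03 and 0.05.

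**Figure D4:**
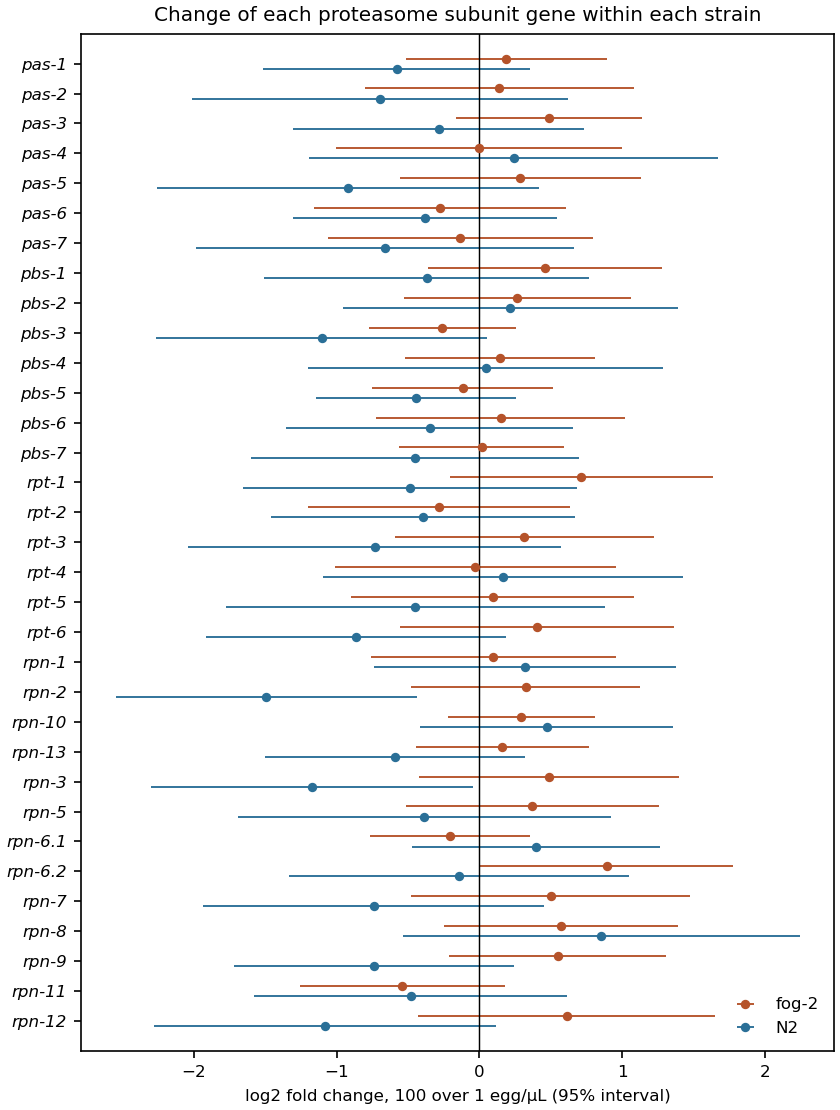
Log2 fold change of 100 over 1 egg/μL within *fog-2* (upper point of each pair) and within N2 (lower point) for each of the 33 subunit genes, on the horizontal axis, with 95% intervals (limma on log2(tpm + 1), 38 *fog-2* and 36 N2 animals). In *fog-2* 8 genes lie below 0 and in N2 25, and 0 passed the threshold in either strain. With quantile normalization 18 lie below 0 in *fog-2* and 28 in N2, and with the number of genes at 1 tpm as a covariate 21 and 28.

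The steps between neighboring densities were fitted over all animals, with strain and density as factors. In 5 against 1 egg/μL 0 of 33 genes passed, against 1.01% of all genes tested. *pbs-5* at −0.50 (SE 0.22, limma adjusted p = 0.354) and *pbs-3* at −0.66 (SE 0.33, limma adjusted p = 0.455) had an unadjusted p under 0.05. These were 6.06% of the subunit genes, against 10.6% of all genes. The median was −0.07 over the core and 0.17 over the cap, against 0.13 over all genes. In 20 against 5 eggs/μL 0 of 33 passed, against 0.571% of all genes tested. An unadjusted p under 0.05 was reached by 1 of 33 (3.03%), against 6.82% of all genes. It was *pbs-6*, another beta subunit gene, at −0.77 (SE 0.34, limma adjusted p = 0.601).

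In 100 against 20 eggs/μL 1 of 33 passed, against 7.97% of all genes tested in either direction and 0.249% in the lower direction. That gene was *rpn-1*, a base scaffold that holds receptors and shuttle factors, named because of this call. It fell by 0.77 on the log2 scale (SE 0.26, 95% interval −1.28 to −0.26, limma adjusted p = 0.0448). In *fog-2* its median level was 7.88 tpm at 1 egg/μL (range 0 to 29.6), 10.4 at 5 (0 to 14.02), 10.5 at 20 (3.36 to 26.0) and 8.89 tpm at 100 eggs/μL (0 to 23.2). The N2 median was 7.24 tpm at 1 egg/μL (range 0.38 to 22.8), 11.7 at 5 (0 to 27.9), 13.9 at 20 (5.99 to 43.0) and 7.55 tpm at 100 eggs/μL (0 to 24.04). The median was highest at 20 eggs/μL in both strains. In N2 9 of 23 animals at 100 eggs/μL lay below all animals at 20 eggs/μL, and in *fog-2* 4 of 24 did, and the other animals overlapped.

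The log2 difference of *rpn-1* between the means at 100 and 20 eggs/μL was −0.52 in *fog-2* and −1.07 in N2. Between 100 and 1 egg/μL the fitted change was 0.21 (SE 0.33, limma adjusted p = 0.758). Without the 2 N2 animals that stood apart the call was lost (−0.74, adjusted p = 0.0630), and it was lost in 6 more of 13 alternatives. A further 3 subunit genes had an unadjusted p under 0.05 in this step: *pbs-6* at 0.84, *rpt-2* at −0.71 and *rpn-10* at 0.55, with limma adjusted p = 0.115, 0.196 and 0.175. With *rpn-1* these were 4 of 33 (12.1%), against 19.4% of all genes. The steps share animals, and the changes of *pbs-6* in its pair of steps are thus not independent.

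Genes that act around the proteasome gave few calls as well. Of 16 genes of proteasome-associated factors, which unfold, shuttle or activate, 0 passed in 100 against 1 egg/μL over both strains. Of all genes tested 12.4% passed there. The median change of the 16 genes was −0.06. Nearest the threshold was *psme-3*, a homolog of a mammalian activator of the core, at −0.88 (SE 0.32, limma adjusted p = 0.0522). It was followed by *ecps-2*, *ecps-1* and *aip-1* at −0.52, −0.39 and 0.59, with adjusted p of 0.196 to 0.285. The median level of *psme-3* in *fog-2* was 18.2 tpm at 100 eggs/μL (0 to 83.5), against 37.7 tpm at 1 egg/μL (22.7 to 61.5). N2 animals had a median of 7.29 tpm at 100 eggs/μL (0 to 49.1), against 12.3 tpm at 1 egg/μL (0 to 25.0). With quantile normalization 3 of the 16 passed, all lower. 1 passed, also lower, with a pseudocount of 10, with the number of genes at 1 tpm as a covariate, with no mean-variance trend and without the 2 N2 animals that stood apart. Of all 16457 genes tested, 338 were lower as fitted, 391 with quantile normalization and 280 to 343 in the other settings named here.

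Of 6 genes of the SKN-1A pathway 0 passed, against 12.4% of all genes tested, and their median change was −0.14. They gave −0.37 for *wdr-23*, a repressor of SKN-1, −0.49 for *ddi-1*, the protease that trims SKN-1A, −0.35 for *png-1*, the glycanase that edits it, and 0.29 for *sel-11*, an ubiquitin ligase of the endoplasmic reticulum (limma adjusted p = 0.294 to 0.629). The *skn-1* gene itself, whose transcript rows were summed, had a median level of 41.7 tpm in *fog-2* at 100 eggs/μL (6.55 to 81.8), against 45.6 tpm at 1 egg/μL (9.03 to 71.0). In N2 it was 47.8 tpm at 100 eggs/μL (16.3 to 142), against 69.7 tpm at 1 egg/μL (1.08 to 137). The groups overlapped, and the change was 0.10 (SE 0.25, limma adjusted p = 0.861).

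Of the genes for ubiquitin and its activating and conjugating enzymes 28 were in the tables and 26 were tested. Of the 26, 1 rose and 1 fell, against 10.3% and 2.05% of all genes tested. The conjugating enzyme gene *ubc-25* rose by 1.21 (SE 0.31, limma adjusted p = 0.00673). Its median level in *fog-2* was 45.1 tpm at 100 eggs/μL (20.2 to 170), against 36.5 tpm at 1 egg/μL (0 to 51.5). The N2 median was 32.6 tpm at 100 eggs/μL (0 to 134), against 10.98 tpm at 1 egg/μL (0.76 to 32.7). The median was thus higher at 100 eggs/μL in both strains, with overlap.

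The gene that fell was *ubq-2*, which encodes ubiquitin fused to a ribosomal protein, by 0.52 (SE 0.16, limma adjusted p = 0.0193). Its median level in *fog-2* was 1108 tpm at 100 eggs/μL (412 to 1780), against 1223 tpm at 1 egg/μL (637 to 2251). N2 animals had a median of 789 tpm at 100 eggs/μL (218 to 2258), against 1505 tpm at 1 egg/μL (575 to 2727). *uev-1* and *ubc-23*, next in adjusted p, were at 0.60 and 0.62 (adjusted p = 0.129 and 0.148). With the number of genes at 1 tpm as a covariate, or with means by name digit, 0 of the 26 passed, and without animals of name digit 3 there were 1 higher and 0 lower. Of all 16457 genes tested, 156 were higher and 280 lower with the covariate. With means by name digit 502 were higher and 87 lower, and without name digit 3 134 and 55.

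Among other large complexes, the 61 tested genes for cytosolic ribosomal proteins were the list with the most calls. Of these 57 fell and 0 rose, against 2.05% and 10.3% of all genes tested. Their median was −0.65 and their range −0.85 to −0.43. The median SE was 0.17 over the ribosomal genes and 0.35 over the 33 subunit genes. A change of like size is thus called less readily in a subunit gene, as with *pbs-3* at −0.67, which did not pass. The smallest adjusted p were those of *rpl-3* at −0.73, *rpl-7* at −0.70, *rps-23* at −0.75 and *rpl-15* at −0.79 (limma adjusted p = 0.000175 to 0.000461). The median stayed at −0.62 with quantile normalization and −0.63 with the covariate, with 49 and 37 genes lower. It was −0.44 with 0 genes lower when animals with the name digit 3 were left out. That setting also takes out 8 of 13 N2 and 6 of 14 *fog-2* animals at 1 egg/μL. With means by name digit the number lower was 3. Of all 16457 genes tested, 338 were lower as fitted, 391 with quantile normalization and 280 with the covariate. That number was 55 without animals of name digit 3 and 87 with means by name digit. The difference between the ribosomal and the proteasome lists was not tested.

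**Figure D5:**
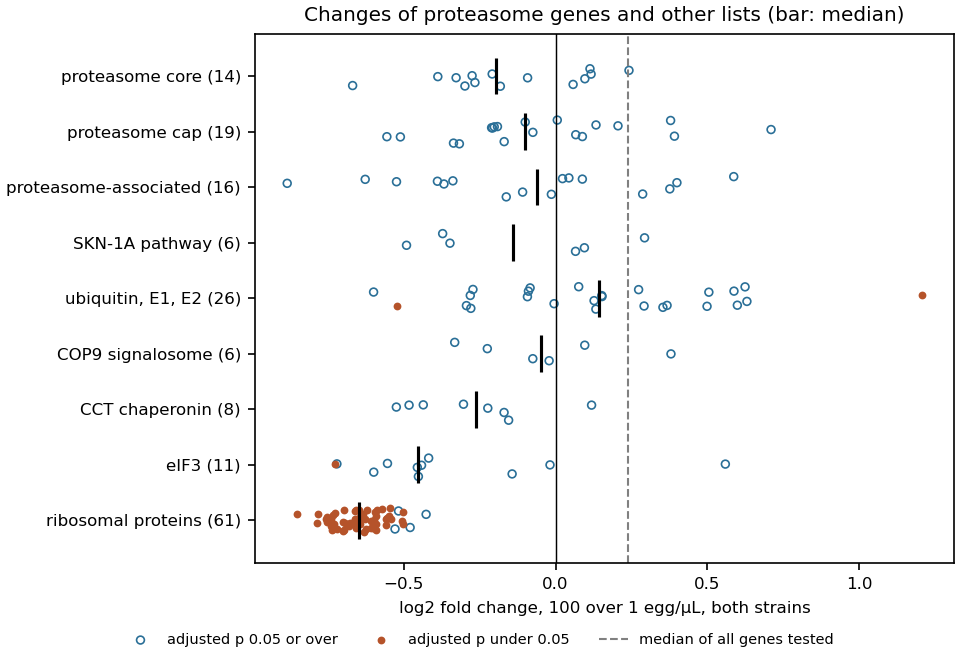
Log2 fold change of 100 over 1 egg/μL in both strains (horizontal axis) of each tested gene in 9 lists, with the number of genes in parentheses. Filled points passed an adjusted p under 0.05, open points did not, bars are list medians and the dashed line is the median of all genes tested, 0.24. The proteasome lists have medians of −0.20 and −0.10 and 0 filled points, and the ribosomal list has a median of −0.65. The median SE is 0.35 over the 33 subunit genes and 0.17 over the ribosomal genes.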

How the data were processed

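Animals were single L1s of *fog-2* and N2. The authors deposited tpm values from RSEM for 47639 transcript rows in separate tables for the strains, after removal of rRNA reads and PCR duplicates, and the submitters' processing notes name Bowtie and the ce11 build without versions. Rows were summed to 46744 genes by RefSeq and then Ensembl symbol (43899 and 671 matched). Columns fell to single animals by name in 146 cases, 8 could be given only to the *fog-2* group at the lowest density, and 0 were left out. Values sum to the same total per animal and read depth was not used, so precision is the spread between animals.

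Genes that reached 1 tpm in 13 or more of the 74 end-density animals entered the test on log2(tpm + 1) with limma 3.58.1 in R 4.3.3 (mean-variance trend, two-sided, Benjamini-Hochberg over 16457 genes, threshold 0.05), with data.table (version 1.17.8), Python 3.11.15, pandas 2.3.3, numpy 2.4.6, scipy 1.17.1 and matplotlib 3.10.9. The fit was tested on simulated data. Genes named in full are the catalytic core genes, the ubiquitin receptor and deubiquitinase genes, the *rpn-6* paralogs and members past the threshold at the end densities, with up to 4 of each other list by adjusted p. Genes outside this rule are marked as named for their values, as are *pbs-3*, *rpn-8* and the others listed at an unadjusted p under 0.05. The members and lists were chosen with earlier results of these data known. Alternatives changed the pseudocount, filter, normalization, covariates, isoform summing, animals, use of the name digit, variance model and threshold. No sequences are shown.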

Additional observations from a re-analysis of the deposited data

How the results depend on the processing

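The count of subunit genes past the threshold stayed at 0 under all 13 alternatives for 100 against 1 egg/μL in both strains, *fog-2* and N2, for the interaction, and for the steps up to 20 eggs/μL. For 100 against 20 eggs/μL it was 1 and became 0 with a pseudocount of 0.1 or 10, a mean of at least 10 tpm, animals of name digit 3 left out, means by name digit, a threshold of 0.01, and without the 2 N2 animals that stood apart, the last chosen after the data were seen. The log2 change of *rpn-1* there stayed negative, from −1.15 to −0.33, with adjusted p of 0.0214 to 0.527.

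The median change of the 33 genes between 100 and 1 egg/μL ranged from −0.33 to −0.06. Of the 13 alternatives 5 cannot move the change of a subunit gene. Under the other 8, 229 of 264 values for single subunit genes kept their sign and 35 changed it, all without a call on either side. With quantile normalization these were *pas-3* −0.050, *pas-4* −0.12, *pbs-1* −0.13, *pbs-2* −0.077, *pbs-4* −0.12, *rpt-1* −0.14, *rpt-4* −0.18, *rpn-1* −0.081, *rpn-5* −0.36 and *rpn-6.1* −0.0007. With the number of genes at 1 tpm as a covariate they were *pas-2* 0.14, *pas-3* −0.26, *pas-4* −0.26, *pbs-1* −0.16, *rpt-1* −0.43, *rpt-4* −0.16, *rpn-1* −0.33, *rpn-5* −0.42 and *rpn-6.1* −0.090. Without animals of name digit 3 they were *pas-4* −0.07, *rpt-4* −0.20, *rpn-3* 0.25, *rpn-6.1* −0.11, *rpn-7* 0.049 and *rpn-12* 0.46. With means by name digit they were *pas-1* 0.036, *rpn-5* −0.25, *rpn-9* 0.31 and *rpn-12* 0.19. A pseudocount of 0.1 gave *rpn-9* 0.17, a pseudocount of 10 gave *rpn-5* −0.11, and leaving out the 2 N2 animals gave *rpn-7* 0.0082. The cause of these changes was not tested.

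The first digit after the density in an animal's name is not explained in the sources used here. At 1 egg/μL, 8 of 13 N2 and 6 of 14 *fog-2* animals had digit 3, and 1 N2 animal had digit 1. Leaving out digit 3, or taking means by digit, therefore also leaves fewer values to test. Calls lost from this and from the digit itself cannot be told apart. Animals of the same digit at 100 and 1 egg/μL deviated together at correlations of −0.09 to 0.17, so the digit was not taken to pair them. With the digit as a replicate block 0 subunit genes passed between 100 and 1 egg/μL, the median was −0.07, *rpn-1* kept its call between 100 and 20 eggs/μL, and *pas-4* −0.021, *rpt-4* −0.072 and *rpn-5* −0.056 changed sign. Over all genes the count of calls between 100 and 1 egg/μL was 2038 and ranged from 189 to 2250 over the alternatives, from 15 to 1423 against 1112 in *fog-2*, and from 7 to 62 against 41 in N2. Read depth was not used, and subunit genes with a mean under 10 tpm were at 0 in 7.79% (*rpn-9*) to 30.5% (*rpn-6.2*) of animals. Intervals of single genes in N2 reached −1 in 28 of 33 cases, so a log2 change of 1 downward lies within the interval for most of them.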

Other observations

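Other complexes of several subunits were measured in the same animals. Between 100 and 1 egg/μL over both strains, 1 of 11 tested eIF3 genes, which encode a translation initiation factor, fell (*eif-3.B*, −0.73, SE 0.20, limma adjusted p = 0.0127), against 2.05% of all genes tested in that direction, and the median of the 11 was −0.45. With the number of genes at 1 tpm as a covariate the count was 2, with means by name digit it was 0, and it was also 0 when animals of name digit 3 were left out. Of all 16457 genes tested, 280, 87 and 55 fell in these settings, against 338 as fitted. The next by adjusted p were *eif-3.K*, *eif-3.H* and *eif-3.G* at −0.45, −0.72 and −0.44. Of the 8 genes of the CCT chaperonin, which folds actin and tubulin, 0 passed (limma), against 12.4% of all genes tested. An unadjusted p under 0.05 was reached by 3 (37.5%), against 25.8% of all genes, and the median was −0.26. Those nearest the threshold were *cct-7*, *cct-4*, *cct-6* and *cct-2* at −0.48, −0.44, −0.52 and −0.30. Of the 6 genes of the COP9 signalosome, a complex related in build to the proteasome lid, 0 passed (limma), against 12.4% of all genes. An unadjusted p under 0.05 was reached by 0, against 25.8% of all genes, and the median was −0.05. The first by adjusted p were *csn-2*, *csn-4*, *csn-5* and *csn-3* at 0.38, −0.33, −0.22 and 0.10.

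The 2 N2 animals at 100 eggs/μL that stood apart had core sums of 138 and 256 tpm, cap sums of 222 and 322 tpm, and 22 and 28 of the 33 subunit genes above 0. Pairs of subunit genes in the core and in the cap correlated across animals at medians of 0.09 and 0.11, the CCT genes at 0.15 and the COP9 signalosome genes at 0.03, as descriptions over animals that share library depth.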
